A study of Mus musculus with 6 samples.

Results

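Ackr3 (also known as Cxcr7), Cxcr4 and Cxcl12 were followed in bone marrow erythroblasts of P38α+/- and P38α-/- mice under haemolytic stress. Every non-control probe that the array files name Ackr3, Cxcr7, Cmkor1, Cxcr4 or Cxcl12 was taken, which gave 4 probes of 3 genes among 55681 probes that carry 34761 gene or transcript names. Ackr3 was chosen by its log2 difference between the P38α-/- and P38α+/- arrays of this same comparison, so its values are a description with no test. Cxcr4 and Cxcl12 were taken because they belong to the same axis.

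The 6 samples were CD71highTer119+ erythroblasts sorted from the bone marrow of 3 P38α+/- and 3 P38α-/- mice on a C57Bl/6 background, male and female and 6 to 8 weeks old when PolyIC was begun. The controls carried Mx1-Cre with 1 floxed allele (P38α fl/+), and the P38α-/- mice carried Mx1-Cre with both alleles floxed (P38α fl/fl). All mice of both genotypes received 3 doses of PolyIC (300 µg each), rested for 6 weeks, received 1 dose of phenylhydrazine (PHZ, 100 mg per kg) to lyse red cells, and were sampled on day 4. Mx1-Cre is driven by an interferon-responsive promoter that PolyIC switches on in many blood and non-blood cells, so neither deletion nor the controls' loss of 1 allele was limited to erythroblasts. For each mouse, 10 ng of RNA was amplified and read in 1 colour (Cy3) on an Agilent array of the whole mouse transcriptome.

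Levels are log2 signals minus the 75th percentile of the array, taken over 15150 probes detected on every array (flagged "well above background" 6 times of 6). "Well above background" is the scanner software's own flag for a spot, and a probe was tested when it carried that flag on all 3 arrays of at least 1 genotype, which left 18547 probes of 14025 genes. The share of probes with the flag was 53.1% in P38α+/- replicate 1, 28.5% in P38α-/- replicate 1 and between 35.1% and 38.2% on the other 4 arrays, and P38α-/- replicate 3 was alone on its slide and scan. The 8 erythroblast markers (among them Tfrc and Gata1) were well above background on all 6 arrays, with a summed level on the linear scale of 269 to 327 in P38α+/- and 251 to 335 in P38α-/-. Markers of neutrophils summed to 119 to 267 and 69.8 to 92.8, and those of progenitors to 5.50 to 30.4 and 2.14 to 3.71, without overlap between the genotypes. Most of the progenitor sum on each array came from Mpo. Its log2 level was 3.38, 4.76 and 2.30 in P38α+/- and 1.69, 1.66 and 0.91 in P38α-/-. Neither probe of Mapk14, the gene of P38α, was lower in the arrays labelled P38α-/-. Their log2 differences (P38α-/- minus P38α+/-, as throughout) were 0.54 (SE 0.19, limma adjusted p = 0.185) and 0.01 (SE 0.42, adjusted p = 0.991), and the second was below 0, at -0.31 to -0.13, when P38α+/- replicate 1 or P38α-/- replicate 2 or 3 was left out. Where the deleted sequence lies relative to them is not in the files, so these probes are no check of the labels. Over all tested probes the median log2 difference was -0.16, and "relative to the median probe" below means that this shift was taken off.

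Cxcl12 is a chemokine that stromal and endothelial cells of the marrow secrete, and it keeps haematopoietic stem and progenitor cells in their niches. Cxcr4 is its classical receptor, coupled to inhibitory G proteins, and is carried by progenitors, lymphocytes and neutrophils. Ackr3 is an atypical chemokine receptor that binds Cxcl12 and Cxcl11, recruits β-arrestin without signalling through G proteins in the usual way, and takes the ligand up for degradation. It is best known from endothelial and stromal cells and from some tumours.

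The signal of each gene rests on a 60-base probe, and the last 30 bases of the 4 probes, as the array files give them on mm9, are shown because every value below is the hybridisation to these letters. The annotation of mm9 was not used here, so the exon or UTR of each probe is not given. Capitals mark AATAAA, the common polyadenylation signal, searched on the printed strand and found in 10.1% of all 55681 probes.
Ackr3, chr1:92111833-92111862, plus strand: ttcttcaagtttttacttggtgactttttg
Cxcr4, chr1:130485079-130485108, minus strand: gtaaattgAATAAAgctagccgtgatcctc
Cxcl12, variants 3 and 2, chr6:117131257-117131286, plus strand: tgctttcttattcttatttttaatatatga
Cxcl12, variant 1, chr6:117125056-117125085, plus strand: tatttacctgaAATAAAatctactagttgt
The Cxcl12 probes read different ends of its transcripts and are kept apart throughout. Ackr3 and Cxcr4 have 1 probe each, so no second probe checks either of them.

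Ackr3 signal was near background in the erythroblasts of P38α+/- mice and clearly measured in those of P38α-/- mice. The normalised level of its probe was -7.87, -7.44 and -8.63 in the 3 P38α+/- arrays (mean -7.98 ± 0.61 SD, n = 3). It was -3.62, -3.58 and -3.78 in the 3 P38α-/- arrays (mean -3.66 ± 0.10 SD, n = 3). All 3 P38α-/- arrays lay above all 3 P38α+/- arrays, which 6.81% of the tested probes also did (27.4% did not overlap in either direction). As Ackr3 was chosen for this contrast, nothing is read from that share.

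The detection flags split in the same way. The well-above-background flag of the Ackr3 spot was set on 0 of 3 P38α+/- arrays and 3 of 3 P38α-/- arrays, a pattern found for 9 of the 18547 tested probes (0.0485%). The opposite pattern, detection on all P38α+/- arrays and on no P38α-/- array, was found for 384 probes (2.07%). As with the levels, the flags restate the contrast that chose Ackr3, and nothing is read from these shares. The weaker flag of the software, a signal positive and significant against background, was set on 1 of 3 P38α+/- arrays, replicate 2. It was set on all 3 P38α-/- arrays.

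Before any normalization between arrays, the background-corrected scanner signal of the Ackr3 spot in the 3 P38α+/- mice was 3.46, 7.51 and 3.73. The scanner's own errors for these were 3.48, 3.72 and 3.75, and the values of replicates 1 and 3 were surrogates that the software writes in place of a signal too close to 0. In the P38α-/- arrays the signal was 60.1 ± 7.23, 131 ± 13.7 and 98.8 ± 10.5 (± the scanner's error of 1 spot). No Ackr3 spot was saturated or marked as an outlier.

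Because the P38α+/- arrays give only an upper limit, the Ackr3 difference is best stated as at least 5.97-fold higher in P38α-/-. That bound sets the P38α-/- mean of -3.66 against the mean of the detection floors of the P38α+/- arrays, -6.24, the floor being the lowest level of any probe well above background on the array. The difference of the measured means was 4.32 on the log2 scale (SE 0.31), or 4.48 relative to the median probe, and it contains the surrogate values. By replicate number it was 4.24, 3.86 and 4.85. Leaving out 1 array at a time gave 3.99 to 4.59. It dropped to 1.35 when a normexp background correction, which adds an offset of 50 to every spot, was used with quantile normalization. In the table the authors had normalized themselves, the same probe read 3.42, 8.16 and 3.82 in P38α+/- and 110, 132 and 101 in P38α-/- on a linear intensity scale. That table's column for P38α-/- replicate 2 had a Spearman correlation of 0.898 with the scanner signal of its array, against 1.00 for the other 5 columns.

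**Figure D1:**
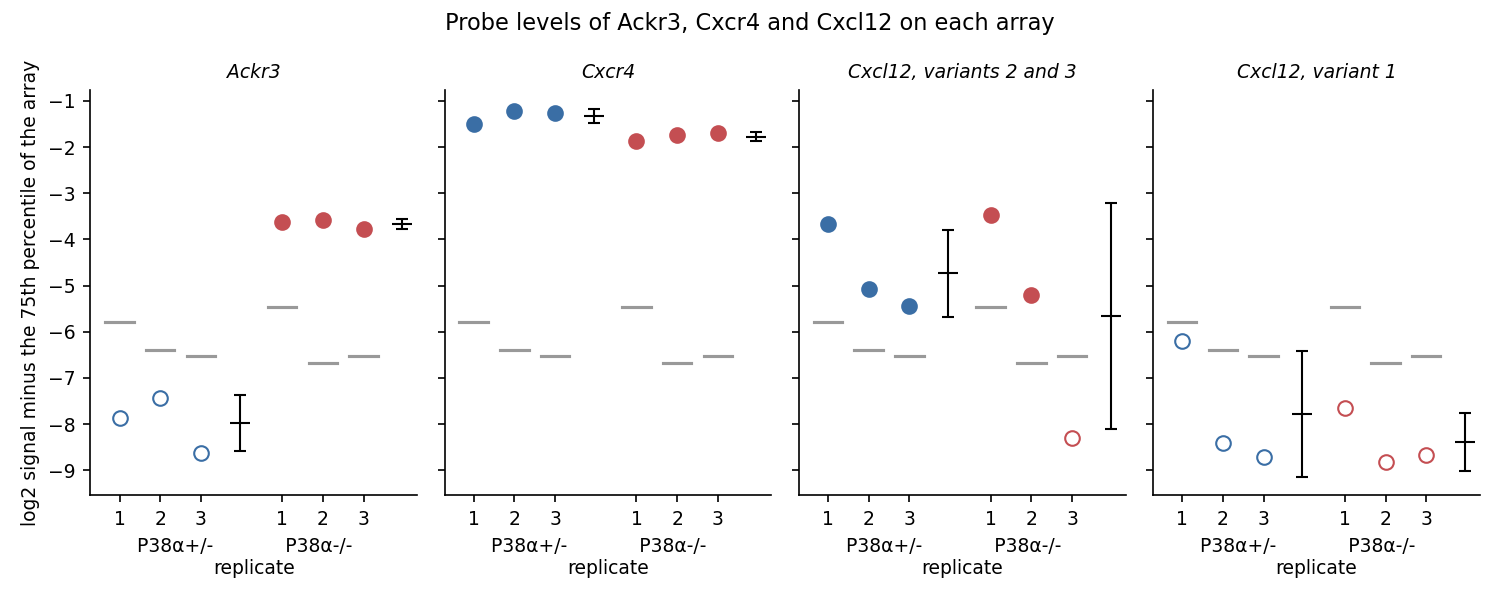
Level of each probe of Ackr3, Cxcr4 and Cxcl12 on each array (log2 signal minus the 75th percentile of the array), blue for P38α+/- and red for P38α-/-, with filled points where the spot was well above background, a grey bar at the detection floor of the array and the mean ± SD in black. The Ackr3 points of P38α+/- lie below their floors at -7.44 or less and those of P38α-/- above theirs at -3.78 or more, and the Cxcr4 points sit at -1.21 to -1.51 in P38α+/- and -1.70 to -1.87 in P38α-/-.

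In sorted cells measured in bulk, more cells of a type and more RNA per cell cannot be told apart. The levels of the cell types best known for Ackr3 were therefore read from their markers. Of 12 stromal markers, 8 were well above background on no array (Foxc1, Ebf3, Col1a1, Pdgfrb, Pdgfra, Dcn, Lum and Cdh11), and the summed stromal level was 0.230 to 0.451 in P38α+/- and 0.200 to 0.235 in P38α-/-. Of 8 endothelial markers, Cdh5, Emcn and Tie1 were well above background on no array, and the sum was 0.630 to 0.971 and 0.508 to 0.828. Each sum rested mostly on 1 gene, the only one of its list well above background on all 6 arrays, which was Lepr for stroma (55.6% to 84.4% of the sum) and Kdr for endothelium (87.3% to 95.5%). Megakaryocyte markers summed to 2.16 to 2.98 in P38α+/- and 2.57 to 3.45 in P38α-/-, with overlap. The part of any of these cells in the Ackr3 signal was not tested.

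Cxcr4 was measured on all 6 arrays and was slightly lower in P38α-/- than in P38α+/- erythroblasts, without passing the test. Its level was -1.51, -1.21 and -1.27 in P38α+/- (mean -1.33 ± 0.16 SD, n = 3) and -1.87, -1.74 and -1.70 in P38α-/- (mean -1.77 ± 0.09 SD, n = 3). All 3 P38α-/- arrays lay below all 3 P38α+/- arrays, as did 20.6% of the tested probes. The exact permutation test of the 6 arrays gave p = 0.10, two-sided, the smallest that 3 arrays against 3 allow.

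The Cxcr4 difference was -0.44 on the log2 scale (SE 0.16, 95% confidence interval -0.82 to -0.07), or 1.36-fold lower. The adjusted p was 0.189 by limma with Benjamini-Hochberg adjustment over all 18547 probes. Relative to the median probe the difference was -0.28. By replicate number it was -0.37, -0.53 and -0.44. With each array scaled to the 75th percentile of all its probes it was 0.04, where the median probe stood at 0.32, so that relative to the median probe it was -0.29. Relative to the median probe it stayed between -0.43 and -0.17 in the reported and the 17 other fits of this probe. Its adjusted p fell to 0.05 or less in 1 of them, with limma's array weights (log2 difference -0.46, adjusted p = 0.0446, in a range of 0.0446 to 1.00 over the alternatives).

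Markers of neutrophils, B cells, T or NK cells and monocytes or macrophages, cells known to carry Cxcr4, reached lower ranges in P38α-/-. The megakaryocyte sums, given above, did not. The neutrophil markers, of which 7 of 9 had all P38α-/- arrays below all P38α+/- arrays (19.5% of all genes did), had the sums given above. B cell markers summed to 0.191 to 1.81 in P38α+/- and 0.0955 to 0.273 in P38α-/-, with overlap. Those of T or NK cells summed to 1.19 to 3.13 and 0.965 to 1.16. Of the 4 tested genes of the T or NK list, Nkg7 had a log2 difference of -1.67. Cd3e, Cd4 and Lck were at -0.32, -0.17 and -0.07. Markers of monocytes or macrophages summed to 0.675 to 1.42 and 0.440 to 0.852, with overlap. Their part in the Cxcr4 level was not tested.

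Cxcl12 could not be told apart between the genotypes. The probe of variants 3 and 2 read -3.67, -5.08 and -5.45 in P38α+/- (mean -4.74 ± 0.94 SD, n = 3) and -3.47, -5.21 and -8.31 in P38α-/- (mean -5.66 ± 2.45 SD, n = 3). It was well above background on all 3 P38α+/- arrays and on 2 of 3 P38α-/- arrays, and the groups overlapped. Replicate 1 was the highest of its genotype in both groups, and P38α-/- replicate 3 was far below the rest.

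The log2 difference of that probe was -0.93 (SE 1.20, 95% confidence interval -3.83 to 1.97, limma adjusted p = 0.704). By replicate number the differences were 0.20, -0.13 and -2.86, so that replicate 3 alone set the sign. Without P38α-/- replicate 3 the difference was 0.39. The spot's scanner signal in P38α-/- mice was 66.8, 42.5 and 4.28, and in P38α+/- mice 63.3, 38.5 and 33.9. In the same P38α-/- replicate 3, the Ackr3 signal was 98.8 and the Cxcr4 signal 416, both well above background.

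The probe of Cxcl12 variant 1 was well above background on no array and was not tested. It read -6.21, -8.40 and -8.72 in P38α+/- and -7.66, -8.82 and -8.67 in P38α-/-. The only value that stood off from the others was that of P38α+/- replicate 1, which was also the array with the largest share of probes above background.

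**Figure D2:**
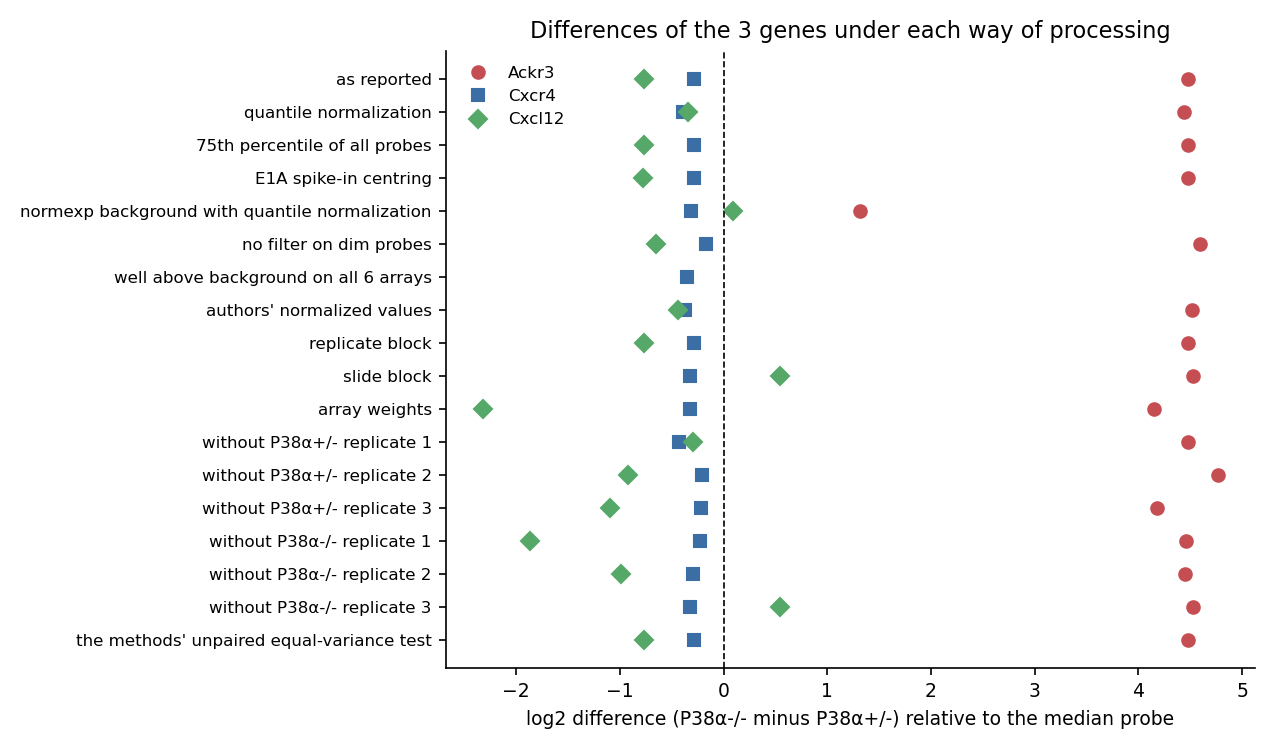
Log2 difference of Ackr3, Cxcr4 and Cxcl12 (P38α-/- minus P38α+/-) relative to the median probe of the same fit, under the reported and each alternative way of processing, with 1 row for each. Cxcr4 stays between -0.43 and -0.17, Ackr3 falls from 4.48 to 1.32 with normexp, and Cxcl12 spans -2.32 to 0.55 and changes side.

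Around the 3 genes, a list of 83 genes of the axis was read by role, from ligands and receptors through G proteins, kinases and arrestins to proteases of the ligand. All 83 had a probe and 60 were tested. Ackr3, whose call is part of what chose it, is left out of the count. Of the other 59, 0 passed (adjusted p at most 0.05 and a fold of at least 2) by limma or by the methods' unpaired equal-variance test. The background was 29 of 14025 genes (0.207%), 23 higher (0.164%) and 6 lower (0.0428%). Before adjustment, 17 of the 59 had a limma p of at most 0.05, 1 higher and 16 lower, against 20% of all genes, 4.84% higher and 15.2% lower. Plcb3, Mmp14 and Kit, among the 16, were tested only through the P38α+/- arrays, where they were higher. So were Cxcl12 and Dock2 of the list. At the level of single arrays, 5 of the 60 genes (Ackr3 included) had all P38α-/- arrays above all P38α+/- arrays and 16 had them all below, against 7.3% and 19.5% of all genes tested (26.8% for both directions). The median log2 difference of the list was -0.28, or -0.12 relative to the median probe. Over its 54 genes well above background on all 6 arrays it was -0.25, against -0.08 for all such genes.

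By role, the median log2 difference was -0.23 for 4 ligands, -0.26 for 12 G proteins and effectors, -0.15 for 12 kinases and migration genes, and -0.22 for 14 genes of desensitization and trafficking. It was -0.11 for 5 transcription factors. The 6 adhesion and retention genes had a median of -0.82 and the 4 ligand proteases one of -1.91. These medians include Kit and Mmp14, which were tested only through the P38α+/- arrays. None of these genes passed the test without a block, and Plcb3 and Kit passed with the replicate number as a block.

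The proteases that cleave Cxcl12 were read by 4 tested genes. Ctsg, the serine protease cathepsin G of neutrophil granules, read 1.32, 2.64 and 0.01 in P38α+/- and -0.26, -0.70 and -1.15 in P38α-/-, a log2 difference of -2.03 (SE 0.65, limma adjusted p = 0.165). The other 3 were Elane, neutrophil elastase, at -1.85, the secreted metalloproteinase Mmp9 at -0.84 and the membrane-bound metalloproteinase Mmp14. Mmp14 read -3.37, -5.98 and -6.002 in P38α+/-, well above background on all 3, and -6.89, -7.32 and -7.06 in P38α-/-, on none. It was at least 2.14-fold lower in P38α-/- (limma adjusted p = 0.197), a bound that P38α+/- replicate 1 carried and that was 1.17-fold without it. The neutrophil and progenitor markers were lower in the same arrays, and their part in these values was not tested. Dpp4, a dipeptidyl peptidase that trims and inactivates Cxcl12, was well above background on 1 P38α+/- array and was not tested.

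The genes of the axis that stood furthest below the median probe without overlap of the genotypes did not pass either. Among them were Plcb3, Ctsg, Mmp14, Rgs2, Kit, Vav1, Rgs19 and Rgs14, with adjusted p from 0.105 to 0.197. Plcb3, a phospholipase that G protein subunits activate, was well above background on all P38α+/- arrays and on no P38α-/- array, and was at least 1.68-fold lower. That bound was 1.41-fold without P38α+/- replicate 2. Kit, the receptor of stem cell factor, read -3.27, -3.57 and -4.74 in P38α+/- and -4.98, -5.14 and -6.31 in P38α-/-, a log2 difference of -1.62 (SE 0.51). With the replicate number as a block, Plcb3 and Kit passed, 2 of the 59 genes beside Ackr3. Rgs2, Rgs14 and Rgs19, which speed up the turn-off of G proteins, had log2 differences of -1.69, -1.27 and -1.46, and Vav1, an exchange factor of Rac, one of -1.47.

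The direct partners of the 3 genes showed no difference that passed. Mif, a cytokine that binds Cxcr4, Ackr3 and Cd74, had a log2 difference of 0.09 (SE 0.18, limma adjusted p = 0.832). Cd74, the invariant chain that serves as a receptor of Mif, read -1.02, -0.92 and -3.19 in P38α+/- and -1.38, -2.62 and -3.78 in P38α-/-, with overlap (log2 difference -0.89, SE 0.81). Arrb1 and Arrb2, the β-arrestins that Ackr3 recruits, had log2 differences of 0.06 (SE 0.18) and -0.94 (SE 0.49). Grk2, the kinase that marks both receptors for arrestin, was at -0.48 (SE 0.20, adjusted p = 0.237), with all P38α-/- arrays below all P38α+/- arrays. Hif1a, a hypoxia factor known to raise Cxcr4 and Cxcl12, was well above background on 1 P38α+/- array by its brightest probe and was not tested.

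Cxcl11, the other chemokine ligand of Ackr3, was read by 2 probes with log2 differences of -0.15 (SE 0.23, limma adjusted p = 0.753) and -0.37 (SE 0.21, adjusted p = 0.349). The first, at chr5:92788567-92788626 on mm9, holds the stretch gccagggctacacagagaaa, shown because it belongs to the repeat element that is known in the mouse as the B1 family. The same 20 bases are in 4 of the 55681 probes, under 4 names, and all 4 probes were well above background on all 6 arrays, against 27.2% of all probes. The stretch was chosen after the values were seen. The signal of this probe is therefore uncertain as a measure of Cxcl11.

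**Figure D3:**
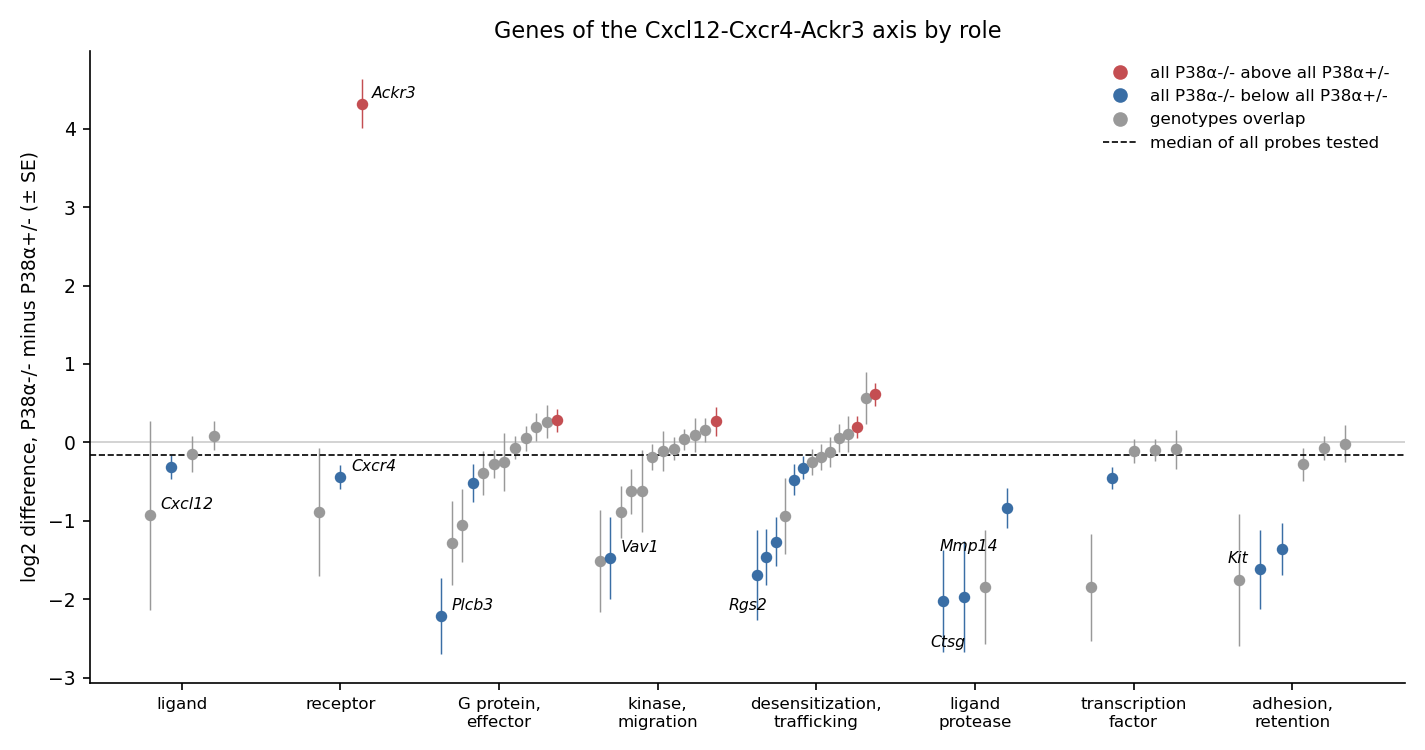
Log2 difference of each tested gene of the axis list (P38α-/- minus P38α+/-, brightest tested probe, ± SE), by role, with the median of all tested probes as a dashed line at -0.16. Ackr3 stands alone at 4.32, and the next highest gene of the list is Rgs10 at 0.61.

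Among all chemokine receptors, 10 of 24 were tested, and of the 9 beside Ackr3 0 passed by limma or by the methods' unpaired test (0.207% of all genes tested did by limma). Before adjustment, 4 of the 9 had a limma p of at most 0.05, all lower, against 20% of all genes (15.2% lower). Of these, Ccr6 and Ccr9 were tested only through the P38α+/- arrays. The other atypical receptors did not move with Ackr3. Ackr1, the Duffy antigen receptor of red cells, read 1.62, 1.26 and 1.67 in P38α+/- and 1.98, 1.46 and 1.65 in P38α-/- (log2 difference 0.18, SE 0.21, limma adjusted p = 0.662). Gpr182, an atypical receptor of endothelium that binds Cxcl12, read -1.70, -5.14 and -5.86 in P38α+/- and -5.28, -5.17 and -6.72 in P38α-/-, with overlap (log2 difference -1.49, SE 1.10). Ackr2 and Ackr4 were not tested, as the brightest probe of each was well above background on at most 1 array.

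Of the 10 tested receptors, 5 (Ccr3, Ccr6, Ccr9, Cx3cr1 and Gpr182) were tested only through the P38α+/- arrays, where they were higher, and Ackr3 only through the P38α-/- arrays, so no median over the 10 is given. Over the 4 flagged on every array the median log2 difference was -0.13. The 2 that stood lowest were Ccr6, a receptor of B cells and some T cells, and Cxcr2, a neutrophil receptor that is also in the neutrophil marker list. Ccr6 was well above background on all P38α+/- arrays and on no P38α-/- array and was at least 1.57-fold lower (adjusted p = 0.0867). That bound was 1.27-fold without P38α+/- replicate 1. Cxcr2 read -2.29, -2.26 and -3.78 in P38α+/- and -4.15, -4.16 and -5.39 in P38α-/- (log2 difference -1.79, SE 0.53, adjusted p = 0.152), and it passed with the replicate number as a block. Of 36 chemokine ligands, 8 were tested and 0 passed by limma or by the methods' unpaired test, with a median of -1.02 over the 7 flagged on every array. Before adjustment, 3 of the 8 had a limma p of at most 0.05, all lower, against 20% of all genes (15.2% lower). The part of neutrophils and B cells, whose marker sums are given above, in these values was not tested.

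**Figure D4:**
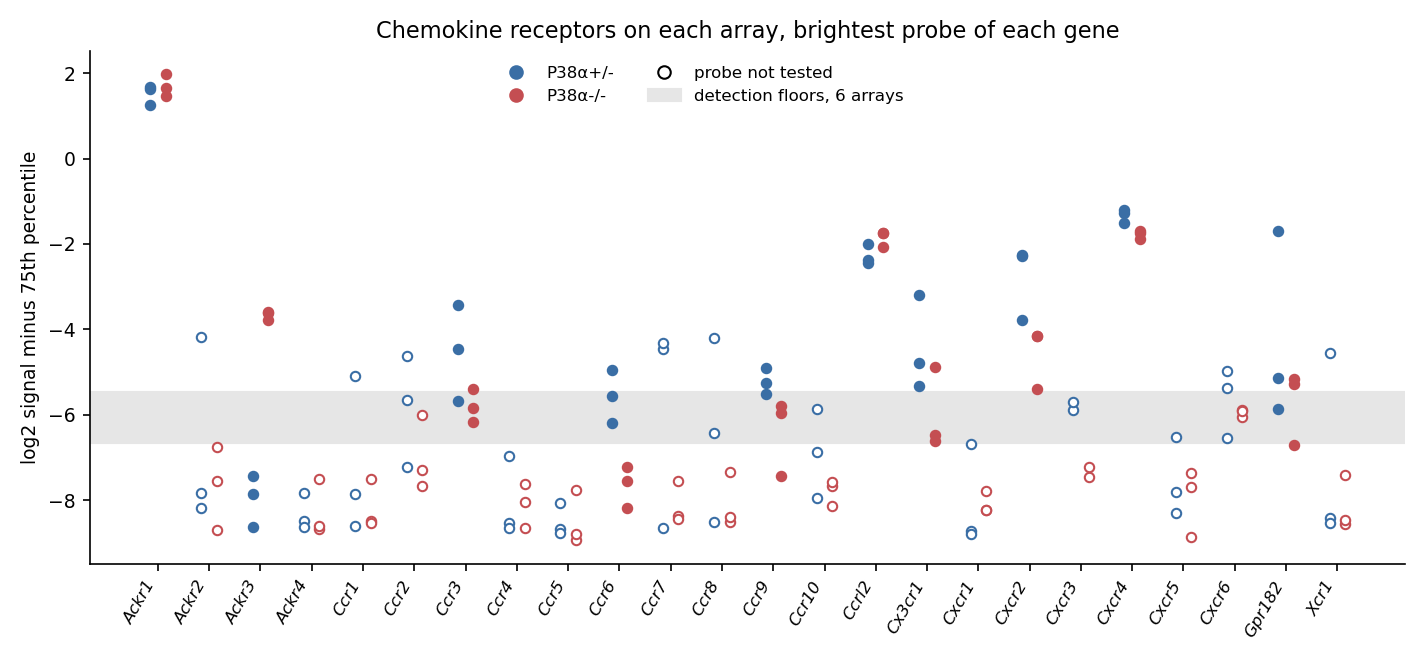
Level of the brightest probe of each chemokine receptor on each array (log2 signal minus the 75th percentile of the array), blue for P38α+/- and red for P38α-/-, open where the gene was not tested, with the range of the 6 detection floors in grey. Within each gene the genotypes can be compared, but not levels between genes, and Ackr3 is the receptor whose P38α-/- points, at -3.78 to -3.58, leave the grey band upwards while its P38α+/- points stay below.

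The genes beside Ackr3 on chromosome 1 did not share its difference. Within 1 Mb of the Ackr3 probe lie 56 other probes, of which 12 were tested and 0 passed by limma or by the methods' unpaired equal-variance test. Before adjustment, 2 of the 12 had a limma p of at most 0.05, both lower in P38α-/-, as were 16.5% of all tested probes. Both were tested only through the P38α+/- arrays, where they were higher. The log2 differences of the 12 ran from -1.95 to 0.90 with a median of -0.33. The lowest was of 1 of these 2 probes, well above background on no P38α-/- array. Of the 12, 1 had all P38α-/- arrays above and the same 2 had them all below, near the shares of all tested probes (6.81% and 20.6%). On the side before Ackr3, the nearest probe, of 4930434B07Rik at 55.9 kb, was well above background on no array, and the nearest tested gene was Agap1 at 320 kb (log2 difference -0.42, SE 0.39, adjusted p = 0.574). On the other side, the nearest transcript, at 40.6 kb, was likewise undetected, and the nearest tested gene with a symbol was Cops8, a signalosome subunit, at 397 kb (log2 difference 0.11, SE 0.18).

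Between them, a transcript without a gene symbol at 68.5 kb, on the same strand as Ackr3, gave the highest value of the 12 tested probes. Its first probe, at chr1:92180307-92180366 on mm9, read -4.84, -5.18 and -6.51 in P38α+/- and -4.52, -4.53 and -4.77 in P38α-/-. The log2 difference was 0.90 (SE 0.43, limma adjusted p = 0.286). The second probe, next to it, overlapped between the genotypes (log2 difference 0.81, SE 0.49, adjusted p = 0.389). Another probe of this transcript, at 68.6 kb, was well above background on 2 arrays of each genotype, was not tested, and had a log2 difference of -0.06 over the 4 arrays that gave a value.

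**Figure D5:**
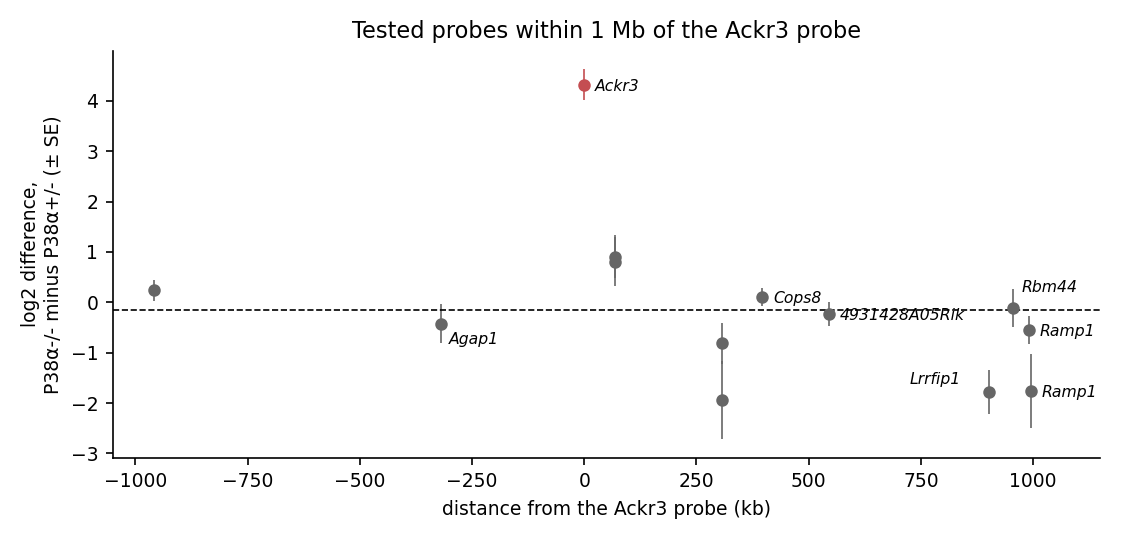
Log2 difference (P38α-/- minus P38α+/-, ± SE) of the tested probes within 1 Mb of the Ackr3 probe against their distance from it in kb, with the median of all tested probes as a dashed line. Ackr3 is at 4.32 and the other 12 probes lie between -1.95 and 0.90.

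The probes whose levels followed Ackr3 most closely were sought over the 6 arrays by Pearson's r among all tested probes, as a description, since the 6 arrays share the split by genotype that chose Ackr3. All 3 P38α+/- values of Ackr3 lay below the detection floor, and those of replicates 1 and 3 were surrogates. The order among genes split by genotype thus rests partly on values that hold little or no Ackr3 signal. The 5 genes were Sfrp4 (r = 0.997), Shld1 (0.995), Nacc2 (0.993), Tmem109 (0.993) and Fars2 (0.992). Sfrp4, a secreted antagonist of Wnt ligands, read -4.97, -4.97 and -5.72 in P38α+/- and -2.76, -2.64 and -2.80 in P38α-/-. Nacc2, a transcriptional repressor with a BTB domain, read -5.03, -5.04 and -5.31 and -2.27, -2.45 and -2.35. Both were well above background on all 6 arrays, unlike Ackr3, and had log2 differences of 2.49 and 2.77. The others differed less, by 0.67 to 0.79. Cxcr4 had r = -0.895 with Ackr3 and Cxcl12 r = -0.249.

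For Cxcr4 the closest were Emsy (r = 0.997), Eif1a (0.996), Lockd (0.995) and Map3k1 (0.993), and a probe without a gene name (0.993). Their log2 differences ran from -0.52 to -0.13, the last, of Lockd, being above the median probe (-0.16). Cxcr4 itself did not overlap between the genotypes, so probes picked for following it tend to share its sign. Nothing is read from that sign.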

How the data were processed

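Spot intensities were deposited by the authors in the form given by Agilent Feature Extraction 10.7.3.1, with background subtracted within each array and no normalization between arrays, beside their own normalized intensity table on a linear scale whose steps are not given in the sources used here. Arrays took genotype and replicate number from their labels. Control spots and spots with an outlier flag were dropped, spots of 1 probe were averaged on the log2 scale, and the 75th percentile over 15150 probes was subtracted. Of 55681 probes, 27509 were named by accession, 3549 by symbol and 404 by synonym (RefSeq, GRCm38.p6), and 24219 kept the name in the file. Genotypes were compared with limma 3.58.1 in R 4.3.3 (lmFit, eBayes, two-sided, Benjamini-Hochberg over 18547 probes), with a call at an adjusted p of at most 0.05 and a fold of at least 2. The fit was tested on simulated data. The number of arrays, 3 a genotype, limits the precision.

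The genes, lists and alternatives were chosen with earlier results of these data known. List genes were described by their brightest tested probe. Named were the 3 genes, the direct partners, axis genes whose genotypes do not overlap and that lie at least 1 (log2) from the median probe, up to 20, the nearest neighbours and the 5 closest genes by correlation. An axis gene that this rule also names is not reported here. In addition, Elane, Mmp9, Rgs10, the atypical receptors, Ccr6 and Cxcr2 were named after their values were seen. Marker lists were of erythroblasts, stromal, endothelial, T or NK and B cells, neutrophils, monocytes or macrophages, megakaryocytes and progenitors.

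Same-numbered arrays deviated from their genotype means together (r = 0.394, 0.241 and 0.391), and arrays of different numbers correlated at most at 0.060. The series' text speaks of pairs, so the numbers were taken to pair the mice. The reported fit has no block, as the methods' test is unpaired. The tests and intervals above thus leave the pairing out unless the block is named. Alternatives were other normalizations, background correction and filters, the authors' table, replicate and slide blocks, array weights, each array left out and the methods' test. That test used the levels and tested probes of the reported fit. With P38α-/- replicate 3 alone on its slide, the slide block gives the same fit as leaving that array out. It is thus neither a separate alternative nor an adjustment for slide among the other arrays.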

Additional observations from a re-analysis of the deposited data

How the results depend on the processing

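Over all genes, 29 were called (79.3% higher in P38α-/-), against 12 with quantile normalization (91.7% higher), 778 with the percentile of all probes (53.9%), 8 with E1A spike-in centring (25.0%), 87 with normexp (93.1%), 0 with no filter, 62 with detection on all 6 arrays (75.8%), 11 with the authors' values, all higher, 67 with the replicate block (26.9%, 20 of them among the 29), 0 with the slide block, 1647 with array weights (14.6%), 2 with the methods' test and 0 to 100 with 1 array left out. The count of the axis list, 1 with Ackr3, became 4 with the percentile of all probes, 0 with no filter, with detection on all 6 arrays (where Ackr3 is not tested), with the slide block and with the methods' test, 3 with the replicate block, 18 with array weights, and 0 to 1 with 1 array left out. That of chemokine receptors and ligands, 1 with Ackr3, became 4, 0, 0, 0 and 0, 2 and 9 in the same order, and 0 to 1. The count of neighbours, 0, became 4 under the all-probe percentile and 2 under array weights. The methods' test was run on the levels and tested probes of the reported fit, not on the authors' table. Its count is therefore not that of the paper, which reports many more genes.

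The Ackr3 difference kept its direction in all 15 alternatives that gave one and moved from 4.32 to 1.35 with normexp, where the offset of 50 is large beside the P38α+/- signals. With the other 14 it was 3.99 to 4.80. That direction is part of what chose the gene, so its recurrence is no support for it. Dropping the filter or adding the replicate block cannot change this difference of means. Cxcr4 changed sign to 0.038 under the all-probe percentile, had an adjusted p under the threshold with array weights (-0.46, adjusted p = 0.0446) and ran from -0.53 to -0.39 with 1 array left out. Cxcl12 changed sign with normexp (0.13) and without P38α-/- replicate 3 (0.39), which is also what the slide block amounts to. With 1 array left out its range was -2.02 to 0.39. The replicate block left the differences of Cxcr4 (adjusted p = 0.116) and Cxcl12 (adjusted p = 0.433) on their side of the threshold and changed no call beyond those of Plcb3, Kit and Cxcr2 in the lists. Except as stated, the causes were not tested. Ackr3 rests on 1 probe near the detection floor in P38α+/-, so its fold has only a lower bound.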
